A study of Mus musculus with 2 samples.

Results

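The data described here are the reads that long-read RNA sequencing of mouse left cerebral cortex placed on processed pseudogenes, set beside the reads on the genes they were copied from. Members were chosen as genes that the annotation types as processed pseudogenes and that held 10 or more reads summed over both libraries. Oaz1-ps was left out. There were 130 such genes among 9941 annotated processed pseudogenes and among 18534 annotated genes with at least 1 read. Because the summed reads chose the members, their levels are given as a description. The series holds 2 libraries of 1 group, labelled biological replicates 1 and 2, made from 2 µg of total RNA each. The mice were adult B6CASTF1/J animals, 18 to 20 months old. They are a first-generation cross of the C57BL/6J and CAST/EiJ strains, so each cell carries a genome copy from each strain, and which copy a read came from was not analysed here. The labels disagree on the sex of the animals and give both libraries the same donor entry, so the spread between them may be technical in part. No treatment or genotype was compared, and the only comparison the design allows is replicate 1 against replicate 2.

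A processed pseudogene arises when a messenger RNA is reverse transcribed and the copy is inserted into the genome, so that it lacks the introns of its parent and, at first, its promoter. Genes with abundant, stable messenger RNAs in the germ line, such as those of ribosomal proteins and of Gapdh, have left many such copies. A copy that is young or has changed little can differ from its parent by a few bases or by none, and a read from either is then hard to place. A long read covers most of a messenger RNA in 1 piece, so it was taken here as 1 molecule and reads were not divided by gene length.

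The sequences below, from the reference annotation, show how small the difference is between the most-read members and their parents. The bases in the reads and in the CAST/EiJ genome copy were not examined. Each pair covers the same stretch of the parent's coding part, with the parent's base and the pseudogene's base in capitals where they differ. Substitutions are written with the parent's base first, then the position counted from 1 at the first base of the parent's coding part, then the pseudogene's base. Gm15459, a copy of the chaperone gene Hspa8, carried 5 substitutions over 1941 bases (G114A, C414T, C549T, G1222A and C1440T), and the first of them is shown at chr5:5783418-5783466 on the minus strand of mm10.
Gm15459: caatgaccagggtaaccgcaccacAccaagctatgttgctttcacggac
Hspa8: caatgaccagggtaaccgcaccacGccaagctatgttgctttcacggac
Gm12033 at chr11:20335486-20335534 on the minus strand and Gm5559 at chr5:95862074-95862122 on the plus strand are copies of the glycolytic gene Gapdh with 1 substitution each over 1002 bases, T504C and T385A. Gm12671 and Gm10359 had none over the same 1002 bases.
Gm12033: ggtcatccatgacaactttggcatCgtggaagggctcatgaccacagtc
Gapdh: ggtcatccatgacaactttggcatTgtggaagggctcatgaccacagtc
Gm5559: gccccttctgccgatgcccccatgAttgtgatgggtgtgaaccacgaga
Gapdh: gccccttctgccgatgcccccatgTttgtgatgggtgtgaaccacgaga
Gm11223 at chr4:69925782-69925830 and Cbx3-ps6 at chr14:73955138-73955186, both on the minus strand, are shown because their reads differed between the libraries. They carried 1 substitution each, A274G against the tubulin-binding protein gene Stmn1 and A390G against the heterochromatin protein gene Cbx3.
Gm11223: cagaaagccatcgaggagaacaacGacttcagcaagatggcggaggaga
Stmn1: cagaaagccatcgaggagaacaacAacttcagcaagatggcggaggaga
Cbx3-ps6: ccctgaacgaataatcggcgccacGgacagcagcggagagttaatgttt
Cbx3: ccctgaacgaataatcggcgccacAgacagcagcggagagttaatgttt
Gm7805 at chr17:21964300-21964389 on the minus strand is shown as a diverged copy, at 88.3% identity to the mitochondrial ribosomal protein gene Mrpl20. This stretch of 90 bases held 8 differences.
Gm7805: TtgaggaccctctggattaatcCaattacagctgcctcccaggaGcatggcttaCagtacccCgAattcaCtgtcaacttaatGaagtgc
Mrpl20: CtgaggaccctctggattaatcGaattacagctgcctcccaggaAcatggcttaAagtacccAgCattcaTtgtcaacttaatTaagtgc

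Replicate 1 held 871524 reads and replicate 2 held 839150. Of these, 774629 and 679147 lay on annotated genes, and these totals are the denominators for counts per 1000000 reads (CPM) below. All 5 neuronal markers were detected, at a summed level of 5352 CPM in replicate 1 and 5018 CPM in replicate 2, and all listed markers of astrocytes, oligodendrocytes, microglia and endothelium had reads. Of 4 germ cell markers 2 had reads, at 7.75 and 8.83 CPM summed, and the sperm protamine gene Prm1 and transition protein gene Tnp1 were at 0. Blood markers summed to 372 CPM in replicate 1 and 194 in replicate 2, and choroid plexus markers, with 1 of 3 detected, to 23.2 and 7.36. The part of these cell types in the differences between the libraries was not tested.

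Members took up under 1% of the reads on annotated genes, and 5 copies held most of them. The 130 members had 7471 reads in replicate 1, 0.964% of the reads on annotated genes (95% Wilson interval 0.943 to 0.986%), and 5888 reads in replicate 2, 0.867% (0.845 to 0.889%). These intervals cover counting error only. A member had 10 to 3633 reads, with a median of 25.5, and 25 members had 100 or more. A read was found in both libraries for 129 members. At the limit of the rule, 7 members had 10 reads (among them Gm10557, Gm13910 and Gm6197), and 9 processed pseudogenes with 9 reads fell outside it (among them Gm10509, Gm13940 and Gm14719). In all 467 had 1 to 9 reads, and 9343 had none.

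The first 5 members held 54.4% of member reads in replicate 1 and 51.4% in replicate 2. Gm15459 had 2088 and 1545 reads in replicates 1 and 2 (2485 ± 297 CPM, SD, n = 2), which was 27.9% and 26.2% of member reads. Gm10123, identical over its aligned length to Ppia, the gene of the peptidyl-prolyl isomerase cyclophilin A, had 924 and 724 reads (1129 ± 89.7 CPM). Gm12671, the Gapdh copy without a difference, had 439 and 295 reads (500.5 ± 93.6 CPM). Rpl3-ps1, a copy of the large ribosomal subunit gene Rpl3, had 294 and 268 reads (387.1 ± 10.7 CPM), and Gm12033 had 319 and 197 (350.9 ± 86.1 CPM). Gm10698, identical to the cargo receptor gene Tmed2 over its aligned length, had 139 and 110 reads. Gm14539, likewise identical to the ATP synthase subunit gene Usmg5, had 85 and 52. Gm15459 was the highest member in each library, at 2695 and 2275 CPM in replicates 1 and 2. Gm10123 was next, at 1193 and 1066 CPM. This order describes members ranked by the same reads that chose them.

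By the family of their parents, the largest group of members was copies of cytosolic ribosomal protein genes, with 49 members of 38 parents and 1704 and 1383 reads in replicates 1 and 2. Their most-read members were Rpl3-ps1, Gm8172 (a copy of Rps6, 143 and 129 reads) and Rps2-ps13 (129 and 122 reads). Rps19-ps6 had 78 reads in each library, and Gm9843, a copy of Fau, had 72 and 53. The 5 copies of folding and proteolysis genes held more reads, 3030 and 2293, nearly all on Gm15459 and Gm10123. The 10 copies of glycolysis and citric acid cycle genes held 1307 and 886 reads, of which 1205 and 829 lay on 7 copies of Gapdh. Copies of genes on the list of oxidative phosphorylation subunits numbered 7, with 231 and 163 reads. That list goes by gene symbol and does not hold Usmg5. The 7 were led by Gm12338, a copy of the cytochrome oxidase subunit gene Cox7c (56 and 59 reads), followed by Gm10231, a copy of the ATP synthase subunit gene Atp5g2 (49 and 26). Copies of genes on the list of chromatin and nucleic acid binding proteins numbered 4, with 53 and 47 reads. Among them were Gm15387 of Hmgb1, Gm11847 of Hnrnpa3 and Gm4204 of Nap1l1. This list does not hold the heterochromatin protein gene Cbx3, nor Morf4l1, Lsm7, Srp9 and Fbl, so their copies are not counted in it. Copies of genes on the cytoskeletal list numbered 2 (52 and 148 reads). The list of translation factors had 1 (Eif4a-ps4, 72 and 71), and that of signalling and trafficking genes 1 (Rab11b-ps2, 13 and 10). All families here go by lists of gene symbols. No copy of a gene on the iron and redox list was a member, and 47 members were copies of genes on none of the lists.

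Reads on members lay almost wholly on the annotated, unspliced model. Single-exon models held 99.3% of member reads in each library (lower 95% Wilson bound 99.1% in both), against 10.8% and 11.8% of the reads on protein-coding genes in replicates 1 and 2. All but 1 of the members have an annotated model of 1 exon, so a high single-exon share was largely set by the annotation. Member reads leave out 177 and 196 reads in replicates 1 and 2 on overlapping same-strand models that belong to no annotated gene. Annotated models held 99.1 ± 0.095% of member reads (SD, n = 2), against 71.1% and 68.2% of the reads on protein-coding genes in replicates 1 and 2. This share too was largely set by the annotation. An unspliced read on a 1-exon model has no splice junction that could differ from the annotated ones, so the 2 gene classes are not alike here. In the annotation's separate class of transcribed processed pseudogenes, the single-exon share was 84.1% and 84.6%. For 111 members every read lay on the annotated model. Annotated member models were 171 to 2884 bases long, with a median of 537.5.

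Spliced reads were few, 51 in replicate 1 and 41 in replicate 2, and 72 of these 92 lay on 5 members. AC154707.1, the only member whose annotated model has more than 1 exon, had 14 and 14 of its 14 and 15 reads on multi-exon models, none of them the annotated one. Gm15959 had all of its 6 and 8 reads on unannotated 2-exon models. Gm4118 had 9 and 6 multi-exon reads, Gm13292 6 and 4, and AC139750.2 3 and 2. Gm13292, a Gapdh copy, was thus the only one of these 5 at 99% identity or more to a parent. Gm15959 and AC139750.2 had no parent match, nor had Gm715 and Gm17194.

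Members were much closer in sequence to their parents than other processed pseudogenes were. A parent was matched by alignment of the annotated transcripts, or by symbol, for 126 members. Their median identity to the parent was 99.7%, against 97.2% for the 405 aligned pseudogenes with 1 to 9 reads and 90.8% for the 6832 with none. Of the 126, 40 were identical to the parent over the aligned stretch, 99 were at 99% or more, and 8 were below 95%. The 99 held 93.4% of member reads. Read the other way, 3 of 3129 pseudogenes at 80 to 90% identity were members (0.0959%). The share was 2.35% at 98 to 99%, 23.4% among the 184 copies nearest to identical, and 30.5% among the 131 identical copies, of which 67 had at least 1 read.

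**Figure D1:**
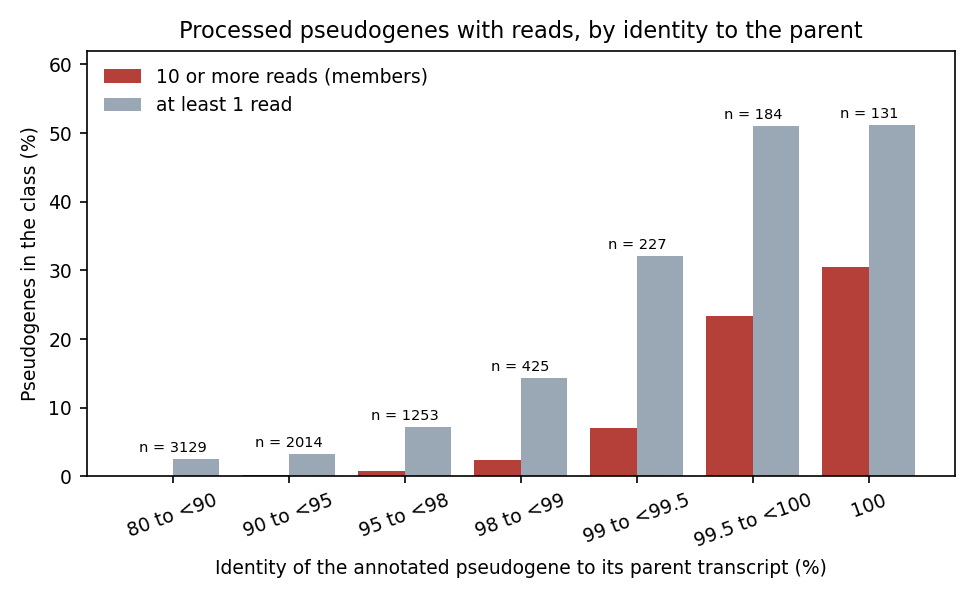
Share of aligned processed pseudogenes (%, vertical axis) with 10 or more reads (red) and with at least 1 read (grey), by identity to the parent transcript (%, horizontal axis), with the number of pseudogenes in each class above the bars. The share with 10 or more reads was 0.0959% in the lowest class and 30.5% among identical copies.

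These counts were also taken by the level of the parent. Among identical copies whose parent had 100 or more reads, 24 of 64 were members (37.5%) and 39 had a read. Among the 16 identical copies whose parent had under 10 reads, none had a read. At this depth a count of 0 allows up to 3.87 CPM in replicate 1 and 4.42 CPM in replicate 2.

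Most members also had a reading frame about as long as the parent's coding part. Each was the longest frame from an ATG, in any frame and with or without a stop codon. Whether it matched the parent's own frame was not tested. The longest reading frame of a member reached 95% or more of the parent's coding length in 103 of 126 (81.7%), against 35.8% of pseudogenes with 1 to 9 reads and 10.5% of those with none. In 107 of 126 members (84.9%) the annotated pseudogene began and ended within 10 bases of the parent's coding part, so its annotated part covered little beyond the coding part. This held for 57.8% of pseudogenes with 1 to 9 reads and 36.2% of those with none. Among identical copies it held for 35 of 40 members (87.5%) and for 34 of 91 other pseudogenes (37.4%). These shares describe genes that were chosen by their reads, and whether the annotated ends affect how a read is placed was not tested.

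Members mostly had fewer reads than their parent. Of 124 members whose parent had reads, 108 had fewer, and the median member had 23.2% of its parent's reads (range 1.25 to 1984%). Gm15459 had 88.2% of the reads of Hspa8, a constitutively made chaperone gene with 2310 and 1808 reads. Gm10123 had 87.1% of the reads of Ppia (1059 and 833), and Rpl3-ps1 had 42.9% of those of Rpl3 (693 and 617). At the other end, Gm17383 had 1.38% of the reads of the tubulin gene Tuba1b (18 and 16 against 1417 and 1041). Across these 124 members the correlation of log2 reads between member and parent was weak, with Pearson's r 0.19 and Spearman's rho 0.096, as a description over genes of the same libraries. Members of 1 parent share its value. AC151275.1, a copy of the interferon-induced gene Isg15, had 5 and 8 reads against 1 and 0. Gm10259 and AA414768 had parents listed at 0 reads.

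**Figure D2:**
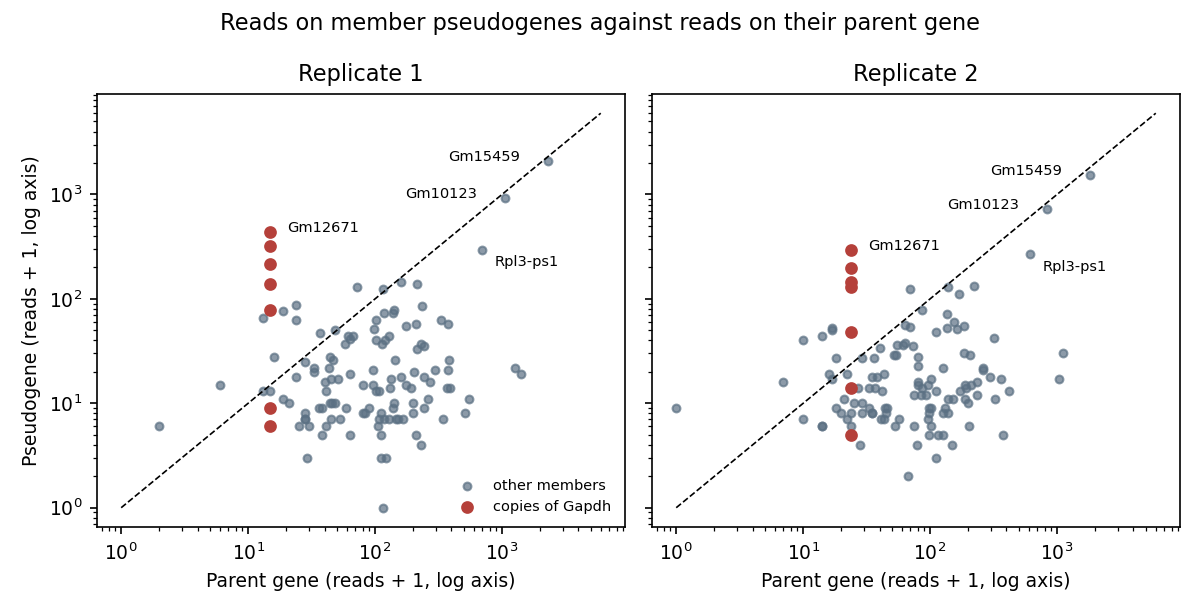
Reads on each member (vertical axis) against reads on its parent gene (horizontal axis), both plus 1 on log axes, in replicate 1 (left) and replicate 2 (right), with equal reads on the dashed line and copies of Gapdh in red. In each library 5 Gapdh copies lie above the line, with Gm12671 the highest of them, while Gm15459 and Gm10123 lie just below it.

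Among parents with reads in both libraries, Gapdh had the largest share of reads on its copies. This gene makes a glycolytic enzyme, the dehydrogenase of glyceraldehyde phosphate, which cells of all kinds use heavily. The 202 pseudogenes that aligned best to it had 1218 reads in replicate 1 and 845 in replicate 2, against 14 and 23 on Gapdh itself. The copies thus held 98.9% and 97.4% of the reads on copies and parent together. Only 16 of the 202 had a read and 7 were members. Gm12671 had 439 and 295 reads, Gm12033 319 and 197, Gm5559 217 and 145, Gm7336 139 and 128, and Gm13394 78 and 47. Gm10359, as free of differences as Gm12671, had 5 and 13, and Gm13292 had 8 and 4. Copies that are equally close to the parent differed widely in reads, and the order of the first 5 was the same in both libraries.

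Gapdh was 1 of 16 parents, of 104, whose copies together had more reads than the parent. Copies of Rpl21 had 172 and 127 reads, led by Rpl21-ps15 (87 and 49) and Gm13370 (62 and 52), against 23 and 16 on the parent. Copies of Rpl17 had 86 and 55 reads, against 12 and 9. Copies of Rpl35a had 95 and 59 reads, most of them on Gm10243 (76 and 43), against 18 and 13. Copies of Rps2 held 133 and 125 reads, against 71 and 68 on the parent. Copies of Rps6 and of Rps29 were close to their parents, with 163 and 142 against 159 and 138, and 123 and 55 against 114 and 62. Of the 16, 9 encode ribosomal proteins (also Rpl27, Rpl30 and Rpl7a). How the deposited counts placed reads between near-identical copies is not given in the sources used here, so reads on a copy and on its parent are uncertain wherever the difference is a few bases or none, and whether these reads came from the copy or from the parent was not tested.

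**Figure D3:**
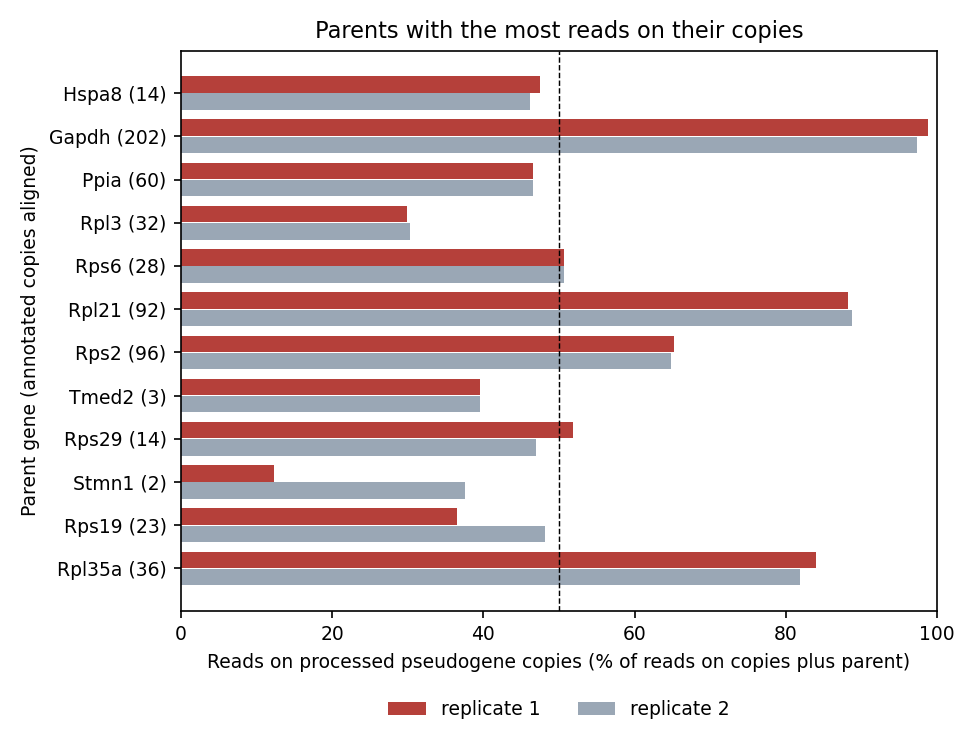
Reads on pseudogene copies as a percentage of the reads on copies and parent together (horizontal axis, from 0), for the 12 parents with the most reads on their copies, in replicate 1 (red) and replicate 2 (grey), with the number of aligned copies in brackets and 50% dashed. Gapdh stands at 98.9% and 97.4%, and Hspa8 at 47.5% and 46.1%.

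Most members overlapped no other annotated gene. Of the 130, 72 overlapped no other annotated gene, 15 lay in an intron of a gene on the same strand, 30 in an intron of a gene on the opposite strand, 10 over an exon of an opposite-strand gene and 3 over an exon on the same strand. Each of the 3 (Gm10774, Rpl19-ps11 and Gm6740) shares bases with another gene, and reads may be split where both have reads. Usp50, over Gm10774, had 3 and 1 reads in replicates 1 and 2. The microRNA gene Gm27288, over Rpl19-ps11, had 0 in each library. All but 8 of the 126 members with a parent lay on another chromosome than the parent. Chromosome 2 held 16 members and chromosome X 12. These positions were not compared with those of all annotated processed pseudogenes.

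The reads of 9 members differed between the libraries, 7 higher in replicate 1 and 2 higher in replicate 2. The split of a gene's reads was compared with the split of the library totals by an exact 2-sided binomial test with Benjamini-Hochberg adjustment over all 9143 annotated genes with 20 or more reads, and it compares these libraries as sequenced. Over all genes tested 1.99% passed an adjusted p of 0.05 (182 genes), 0.733% higher in replicate 1 and 1.26% higher in replicate 2, and 9 of 80 members tested did. At an unadjusted p under 0.05 there were 25 members and 1075 genes. With TMM scaling 8 members differed, against 2.03% of all genes, and the split over all genes was 89 higher and 97 lower in replicate 1, in place of 67 and 115. Counting annotated models only, 5 of 78 members differed, against 0.845% of genes, while 6 of 80 passed an adjusted p of 0.01, against 1.06% of genes. On annotated models only, Gm12671, Gm12033, Pgk1-rs7 and Gm37201 kept their direction, with log2 ratios of 0.31, 0.44, 1.17 and -2.28. They did not pass (exact binomial adjusted p 0.18, 0.074, 0.079 and 0.077). Their own reads were unchanged under this setting, except 438 in place of 439 for Gm12671 in replicate 1. The library totals were then 549960 and 460818 reads in replicates 1 and 2, which lowered the ratios. The chi-square per gene between the libraries was 3.32 over the 130 members and 1.79 over all genes with 10 or more reads, so the spread was above the counting error that the test assumes. The member value includes splits such as 34 and 132 reads at Gm11223. It was not computed with the adjoining models described below, with which Gm11223 had 139 and 158. The median log2 ratio of replicate 1 over replicate 2, on the log2(CPM + 1) scale, was 0.087 over members and -0.028 over all genes tested. Over the 130 members the 2 libraries correlated with Pearson's r 0.84 and Spearman's rho 0.75.

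Among the copies of chaperone and glycolytic genes, Gm15459 was higher in replicate 1 by 0.24 on the log2 scale (counting SE 0.048, exact binomial adjusted p 9.48e-05). Its parent Hspa8 was higher there by 0.16 (adjusted p 0.023). Gm12671 and Gm12033 were higher in replicate 1 by 0.38 (SE 0.11, adjusted p 0.026) and 0.50 (SE 0.13, adjusted p 0.0096), while Gapdh had a ratio of -0.87 from its 14 and 23 reads (adjusted p 0.49). Gm14303 was higher in replicate 1 by 0.96 (123 and 55 reads, adjusted p 0.0029), and its parent Rps29, a small ribosomal subunit protein gene, had a ratio of 0.68 (114 and 62 reads, adjusted p 0.089). Pgk1-rs7, a copy of the phosphoglycerate kinase gene Pgk1, had 57 and 21 reads, a ratio of 1.22 (adjusted p 0.026).

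Larger ratios were seen at 4 further members. Cbx3-ps6 had 39 reads in replicate 1 and 2 in replicate 2, a log2 ratio of 3.70 (SE 0.79, adjusted p 1.62e-06), while the other copy of this gene, Cbx3-ps7, had 62 and 47. Gm6969, a copy of the respiratory chain gene Cox7a2l, had 50 and 15 (ratio 1.51, SE 0.41, adjusted p 0.0094). Gm11223 had 34 and 132, a ratio of -2.12 (SE 0.27, adjusted p 8.10e-15), while Stmn1 itself had 243 and 219. Gm37201, a diverged copy of the glycine cleavage gene Gcsh in an intron of the synaptic gene Bsn on the opposite strand, had 4 and 18 (ratio -2.16, adjusted p 0.0499, and 0.052 with TMM scaling). Bsn had 59 and 100 reads.

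**Figure D4:**
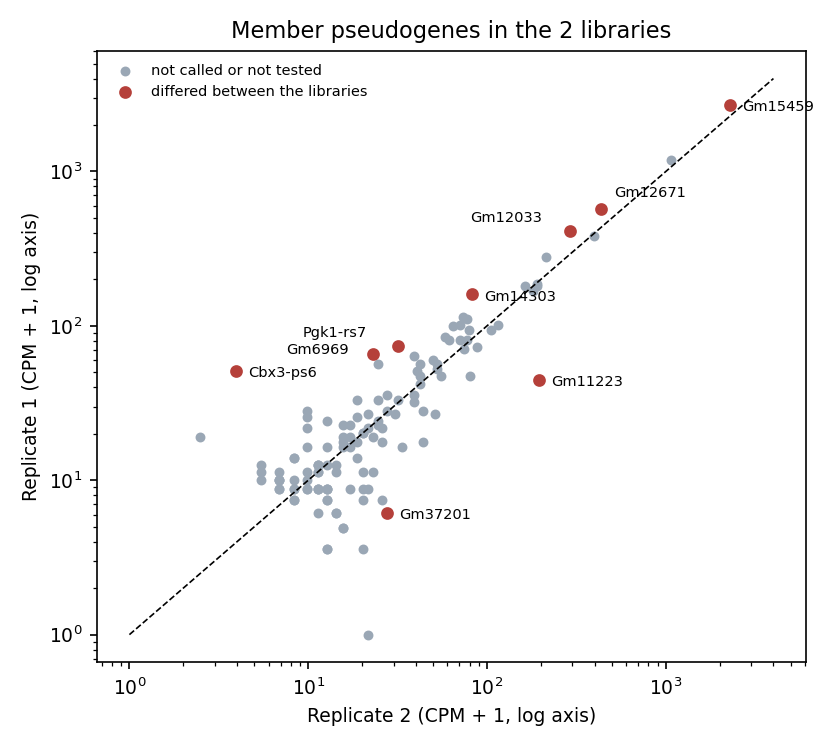
CPM plus 1 of each member in replicate 1 (vertical axis) against replicate 2 (horizontal axis), on log axes, with equal values on the dashed line and the 9 members that passed the test in red and named. Gm11223 and Gm37201 lie below the line and the other 7 above it.

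At 4 of these 9 members an unannotated model adjoins the pseudogene, and its reads were split between the libraries in the other direction. Such models belong to no annotated gene, lie on the same strand, share exactly 1 base with the annotated pseudogene and run on from its 3′ end. They were found at 16 members, 8 on each genomic strand, after the differences between the libraries had been seen. At Gm11223 the adjoining model had 105 reads in replicate 1 and 26 in replicate 2, and pseudogene and model together had 139 and 158. At Gm6969 it had 52 and 69 reads, for sums of 102 and 84. At Pgk1-rs7 it had 0 and 33, for sums of 57 and 54, and at Cbx3-ps6 0 and 19, for sums of 39 and 21. Got2-ps1, a copy of the mitochondrial aspartate aminotransferase gene Got2 under the minimum of 20 reads for the test, had 14 and 1 reads with 0 and 13 on the adjoining model, and so 14 in each library together.

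With these reads added to the members, 4 members of 83 tested differed between the libraries (Gm15459, Gm12671, Gm12033 and Gm14303), all higher in replicate 1. Over all 9146 genes tested 1.9% differed. Adjoining reads were added to members only and all other genes kept their counts, so this share is not a like background. The adjusted p by the exact binomial test was 0.32 for Gm11223, 0.97 for Gm6969, 0.97 for Pgk1-rs7 and 0.49 for Cbx3-ps6. For Gm37201, which has no adjoining model, it was 0.051. The ratio of Pgk1-rs7 was then -0.11.

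**Figure D5:**
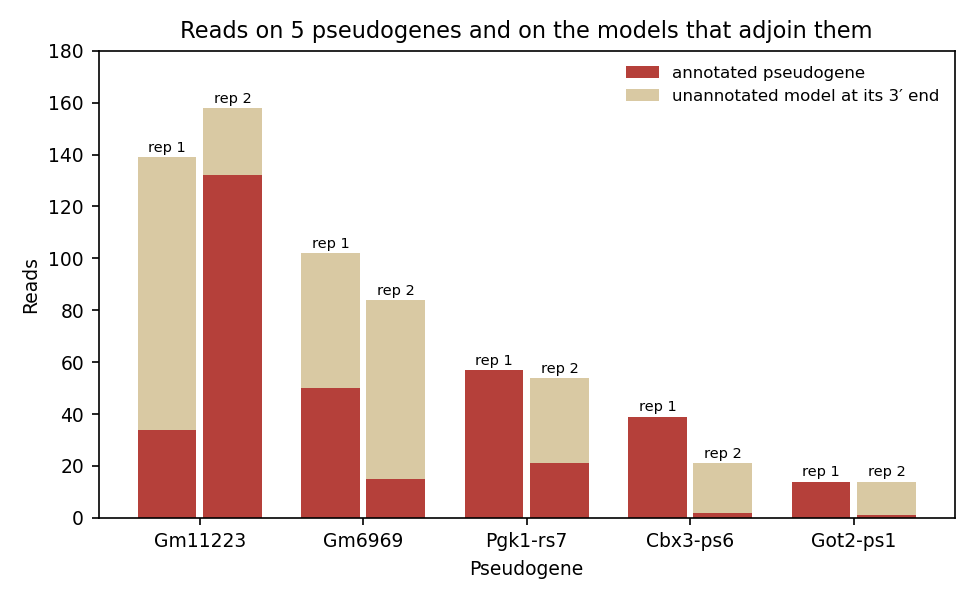
Reads on the annotated pseudogene (red) and on the unannotated model at its 3′ end (tan), stacked, in replicate 1 (left bar) and replicate 2 (right bar) of the 5 members with the most such reads. The sums at Gm11223 are 139 and 158, although the annotated gene alone had 34 and 132.

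Most adjoining models at members with a parent were about as long as the untranslated 3′ end of the matched parent transcript. The model at Gm11223 ran 427 to 429 bases past the pseudogene, where the matched Stmn1 transcript has 440 bases after its coding part. At Gm6969 it ran 666 bases against 685 for Cox7a2l, at Pgk1-rs7 414 against 420 for Pgk1, at Cbx3-ps6 1082 against 1098 for Cbx3, and at Got2-ps1 988 against 995 for Got2. Of the 15 members with such a model and a parent, 11 were within 10% of the parent's length. That length is of the 1 matched transcript, and other transcripts of the parent were not compared. Some of the 11 models had few reads in replicates 1 and 2: Gm4735 and Gm7334 0 and 1, Gm5884 2 and 0, and Gm13292 0 and 2. The exceptions were Atp6v0c-ps2, Gm10241, Gm13831 and Rab11b-ps2. Of these, Gm10241 had 1 and 0 reads on its model and Gm13831 0 and 1. Which bases of the pseudogene these reads covered was not tested.

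The split between the libraries was also set out by identity to the parent, as a description of groups formed after the values were seen. The 17 members below 98% identity had 180 reads in replicate 1 and 242 in replicate 2 (232 and 356 CPM), and 14 of them had the higher CPM in replicate 2. The 99 at 99% or more had 7056 and 5416 reads (9109 and 7975 CPM), and 34 of them had the higher CPM in replicate 2. Of the 17, 12 lay in or over a gene on the opposite strand, against 22 of the 99. Gm7805 had 20 and 34 reads, and Gm15607, a copy of Rpl35, 13 and 29. Gm7389, a copy of the tRNA export gene Xpot, had 24 and 26. Identity and position cannot be told apart in these few members, and their part in the split was not tested.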

How the data were processed

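Long-read RNA-seq of mouse left cerebral cortex was taken as deposited by the authors: per library, whole read counts per transcript model with gene and model classes, and an annotation in mm10 with GENCODE M21 identifiers, whose source column names TALON. Not given in the sources used here are the aligner and the handling of reads that match several copies. Counts were summed per annotated gene, without spike-ins. No count was normalized by the authors, and CPM was computed here.

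Members and lists were chosen with earlier results of these data known. Parents came from the symbol before -ps (38), a RefSeq synonym (1) or blastn 2.17.0+ of GENCODE M21 transcripts (87), with 80% or more identity over 50% or more of the pseudogene, and reads of tied parents were summed (5 ties). All 39 symbol and synonym matches were also the best aligned gene. Sequences are from GENCODE M21.

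The libraries were compared by an exact binomial test (scipy 1.17.1) over genes with 20 or more reads. The test was checked on simulated counts with counting error only, so the check does not cover the wider spread between these libraries. TMM (edgeR 4.0.16) and DESeq2 1.42.0 size factors were alternatives. The pseudocount was 1 CPM. Counts differed by more than sampling noise (chi-square per gene 3.32 over members and 1.79 over all genes, both without adjoining models), so the libraries were kept apart. Genes named were the 20 members with most reads, those that differed, the 5 highest by percent of parent reads (Gm12671, Gm12033, AC151275.1, Gm5559 and Gm7336), the 5 with most multi-exon reads and up to 3 per family. Others were named after their values were seen, such as Got2-ps1, Gm7805, Gm7389, Gm13370 and Gm10359.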

Additional observations from a re-analysis of the deposited data

Results flagged for a closer look

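Reads outside the annotated genes were found over members on both strands. Unannotated models on the opposite strand held 19 reads in replicate 1 and 18 in replicate 2, over 7 members. Ptges3-ps had 10 and 8 of them, which had 2 and 8 reads of its own. Gm15801 had 5 and 3, beside 43 and 16 of its own. With no control samples, these were set against the limit of 3 reads that a count of 0 allows. Unannotated models on the same strand held 177 reads in replicate 1 and 196 in replicate 2, over 18 members, with Gm11223 (105 and 26) and Gm6969 (52 and 69) at the head. No explanation was tested.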

How the results depend on the processing

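The number of members depends on the read minimum: 206 at 5 reads, 80 at 20, and 79 to 81 when 1 library was left out and 10 reads were asked of the other. The share of reads on processed pseudogenes, 0.998% over both libraries, was 0.862% of all reads without spike-ins and 1.41% on annotated models only. Single-exon and annotated-model shares of member reads moved by less than the spread between libraries. On annotated models only, 55 genes and 5 members (Cbx3-ps6, Gm11223, Gm14303, Gm15459 and Gm6969) differed between the libraries. At a threshold of 0.01, set after seeing the data, 97 genes and 6 members did. With adjoining models added, also chosen after seeing the data, 4 members did, and the log2 ratio of Pgk1-rs7 was -0.11. TMM and DESeq2 scaling shifted every ratio by 0.03 and kept 8 of the 9 calls, without Gm37201. By symbol alone, 35 of 38 members had fewer reads than their parent. The median percent of parent reads was then 24.1%, 27.6% on annotated models only, and 20.8 to 21.7% when 1 library was left out. At 99% identity or more, 63 to 67 members had 10 reads in the library left. The causes were not tested, except that 1 library holds fewer reads than both. No paired analysis was possible because there is 1 group, and the library test needs both libraries.

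Members with 10 to 19 reads were not tested between libraries, and a member with no difference from its parent cannot be told from it by its annotated sequence.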
